A study of Mus musculus with 12 samples.

Results

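The genes described here are 36 writers, readers and erasers of DNA and histone marks: DNA methyltransferases and their partner Uhrf1, TET dioxygenases, Polycomb subunits, histone methyltransferases and demethylases, and subunits of deacetylase complexes. They were chosen by symbol, as every probe set that the array's annotation assigns to 1 of the 36 genes. All 36 were found, on 99 of the 37600 probe sets tested, among 16509 genes with a symbol. F9 is a mouse teratocarcinoma line that differentiates when given retinoic acid. WT F9 cells and the line labelled RARaKO, in which by its name the receptor gene Rara is disrupted, each received 1 µM all-trans retinoic acid (atRA) or its 0.1% ethanol vehicle for 7.5 h. All 4 groups, the vehicle controls included, had first stood in 1 µg/ml cycloheximide, an inhibitor of protein synthesis, for 30 min and stayed in it for 8 h in all. Each group held 3 Affymetrix arrays, called set 2, set 3 and set 4 in the labels, which give neither the construction of the RARaKO line nor the meaning of a set.

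DNA methyltransferases place methyl groups on cytosines of CpG dinucleotides, and TET enzymes oxidise them. Polycomb repressive complex 2 (PRC2) methylates lysine 27 of histone H3 and Polycomb repressive complex 1 (PRC1) ubiquitylates histone H2A, and both keep developmental genes silent in embryonic cells until differentiation. Methylation of lysine 9 of H3 marks silent heterochromatin and retroelements, and deacetylase complexes serve as corepressors of many factors, retinoic acid receptors without ligand among them.

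The deposited values carry the expression of each probe set in log2 units, measured from its own median over the 12 arrays. A value of 0 is therefore the middle of that probe set's 12 arrays, differences between groups can be read, and levels cannot be compared between genes. A coarse level could still be recovered from the spacing of the deposited numbers: 64 of the 99 probe sets of the 36 genes were at 8 or more on all arrays, and 33.9% of all probe sets were. By gene, 31 of the 36 had such a probe set. The 5 others (Tet3, Phf19, Ring1, Cbx2 and Cbx8) fell in the class from 4 to 8. All 8 pluripotency markers of embryonal carcinoma cells fell in the upper class, as did 9 of 12 endoderm markers and 0 of 5 fibroblast markers. No pluripotency or endoderm marker passed the test in any comparison, and of the fibroblast markers only Pdgfrb did, higher with atRA in WT cells by 0.50 ± 0.08 (limma, adjusted p = 0.0175) and in RARaKO cells by 0.52 ± 0.08 (adjusted p = 0.0226).

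Known targets of the receptor showed that the ligand acted in both genotypes. Cyp26a1, which encodes the enzyme that degrades retinoic acid, rose by 1.35 ± 0.08 in WT and by 1.38 ± 0.08 in RARaKO cells (limma, adjusted p = 1.33e-05 and 2.37e-05). The single probe set of Rara, the targeted gene, lay higher in the RARaKO-labelled arrays than in WT vehicle arrays, by 0.90 ± 0.09 (adjusted p = 1.50e-04). The labels do not say which part of the gene was removed, so whether this probe set goes against the label cannot be told, and directions between genotypes below are those of the RARaKO-labelled arrays. Errors after ± are standard errors of the limma fit unless given as SD, p-values were adjusted by Benjamini-Hochberg over all 37600 probe sets, and a gene is said to be called where this gave less than 0.05. They measure the spread between the arrays of a group, and that spread may be technical.

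**Figure D1:**
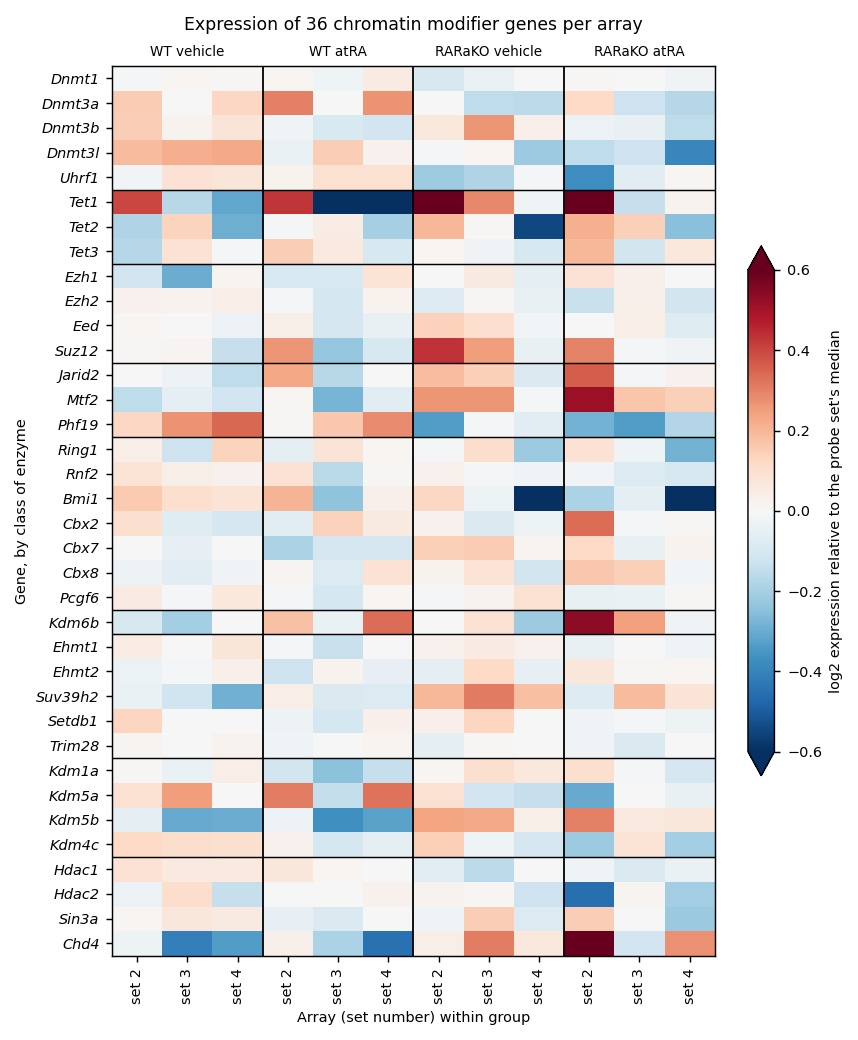
Each row is 1 of the 36 genes, grouped by class of enzyme, each column 1 of the 12 arrays, and the colour is log2 expression relative to the probe set's median over the arrays, with the scale ending at 0.6 in either direction. Dnmt1 and Trim28 are pale in every column, while Tet1, Bmi1 and Chd4 hold the darkest cells and differ between sets of the same group.

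The response to atRA was examined first. By limma none of the 36 genes was called in WT cells (0 of 36, where 0.8% of the 16509 genes were called) and none in RARaKO cells (0 of 36, against 0.394%). At such shares a count of 0 among 36 genes is near the background. Differences ran from -0.25 (Tet1) to 0.26 (Kdm6b) in WT and from -0.20 (Dnmt3b) to 0.30 (Kdm6b) in RARaKO cells, with medians of -0.02 and -0.04 beside -0.01 over all genes in each genotype. At an unadjusted p under 0.05 stood 1 gene in WT, Kdm1a, and 2 in RARaKO cells, Dnmt3b and Kdm6b, where 7.92% and 8.54% of all genes did. The sign of the difference was the same in both genotypes for 28 of the 36 genes, and for 64.8% of all genes.

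These are values of bulk RNA, in which fewer cells of a type and less RNA per cell cannot be told apart. The median standard error was 0.089, and the 95% interval of the response lay within 0.5 log2 units (1.41-fold) of 0 for 32 of 36 genes in WT and for 31 in RARaKO cells. It lay within 1 log2 unit of 0 for all 36 in both. In WT cells 6 genes had all 3 atRA arrays below all 3 vehicle arrays, namely Cbx7, Dnmt3b, Dnmt3l, Kdm1a, Kdm4c and Sin3a, and none had them above, while 15.1% of all genes did not overlap in either direction and 8.54% in this one. In RARaKO cells the atRA arrays lay wholly below for 3 genes, Dnmt3b, Ehmt1 and Setdb1, and above for none, beside 13.7% of all genes in either direction and 6.4% in this one. The difference between RNA signal at the 5' and 3' ends of Actb, Gapdh, Tfrc and Pcx, a sign of RNA quality, also parted the WT groups, at -0.12 to -0.08 in vehicle and -0.03 to 0.02 in atRA, and its part in these values was not tested. The 5' to 3' difference was taken from centred values, so it compares arrays and gives no absolute RNA quality.

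Direct targets of retinoic acid receptors often carry a direct repeat of 2 half-sites 5 bases apart (DR5) near their start. Rarb and Cyp26a1 do in the 300 bases from 250 before to 50 after the RefSeq start (GRCm38.p6), and are shown with the half-sites in capitals, that of Cyp26a1 reading on the opposite strand.

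Rarb, chr14:16575493-16575549, minus strand: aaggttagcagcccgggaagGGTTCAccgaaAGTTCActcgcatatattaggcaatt

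Cyp26a1, chr19:37697756-37697807, plus strand: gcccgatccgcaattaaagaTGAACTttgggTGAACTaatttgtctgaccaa

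Rarb, itself a receptor gene, rose by 1.35 ± 0.09 in WT and 0.95 ± 0.09 in RARaKO cells (limma, adjusted p = 1.33e-05 and 4.05e-04). It was already higher in RARaKO than in WT vehicle arrays, by 0.54 ± 0.09 (limma, adjusted p = 0.00394). In atRA the genotypes differed by 0.14 ± 0.09 (adjusted p = 0.424). The difference between the responses of Rarb, -0.40 ± 0.12, was not called. Promoters of 32 of the 36 genes could be matched, 45 in all, and DR5, DR2 and DR1, searched on both strands, were found in 0 of the 45. Cbx2, Hdac1, Kdm5a and Kdm6b had no matched promoter and were not searched. These repeats are rare everywhere: 0.0974%, 0.268% and 0.222% of the 32851 promoters in the table held them. The match says nothing of sites outside this window.

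**Figure D2:**
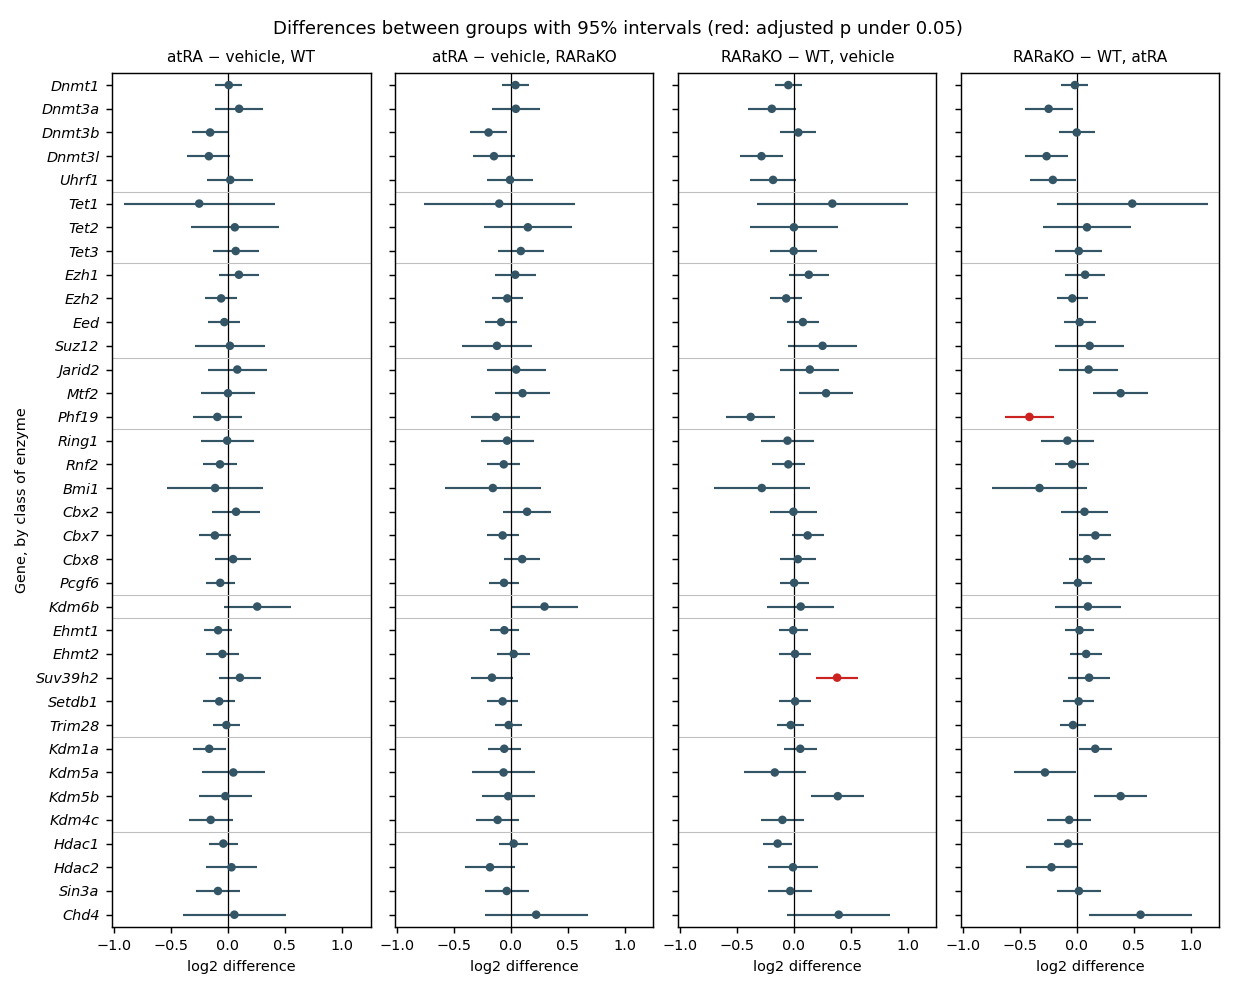
Points are log2 differences for the 36 genes in 4 comparisons, bars are 95% intervals, and red marks the 2 genes called (limma, adjusted p under 0.05). In the 2 atRA panels on the left the interval leaves out 0 for Kdm1a in WT and for Dnmt3b and Kdm6b in RARaKO cells, and Phf19, Kdm5b, Mtf2 and Dnmt3l stand on the same side of 0 in both genotype panels on the right.

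Between genotypes 1 gene was called in each treatment, and not the same one. In vehicle Suv39h2, a histone H3 lysine 9 methyltransferase, was 1.30-fold higher in the RARaKO-labelled arrays (0.38 ± 0.09, limma, adjusted p = 0.0313). In atRA Phf19, a PRC2 accessory protein that binds methylated lysine 36 of H3, was 1.34-fold lower (-0.42 ± 0.10, adjusted p = 0.0409). These counts of 1 in 36 stand beside 3.37% of all genes called in vehicle and 3.48% in atRA, so they are near the background. Unadjusted p-values under 0.05 were found for 6 genes in vehicle (16.5% of all genes) and 10 in atRA (18.3%), in equal numbers higher and lower. Medians over the 36 genes were -0.00 in vehicle and 0.02 in atRA, beside -0.02 and -0.01 over all genes.

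Differences ran from -0.38 (Phf19) to 0.39 (Chd4) in vehicle and from -0.42 (Phf19) to 0.56 (Chd4) in atRA. Groups did not overlap for 10 genes in vehicle, 5 higher (Cbx7, Chd4, Kdm5b, Mtf2, Suv39h2) and 5 lower (Dnmt3l, Ezh2, Hdac1, Phf19, Rnf2), where 24.2% of all genes did not (9.61% higher, 14.6% lower). In atRA they did not overlap for 8, 4 higher (Cbx7, Kdm1a, Kdm5b, Mtf2) and 4 lower (Dnmt3l, Hdac1, Phf19, Uhrf1), where 21.4% did not (9.15% higher, 12.2% lower). The sign was the same in both treatments for 30 of 36 genes and 70.8% of all genes, and the 2 genotype comparisons share no arrays. For the vehicle comparison the 5' to 3' RNA measure lay at -0.12 to -0.08 in WT and -0.02 to 0.13 in RARaKO arrays, and its part was not tested. Same-numbered sets deviated together in vehicle, and with the set number as a block 3 genes were called there, Kdm5b (adjusted p = 0.00785), Phf19 (adjusted p = 0.0107) and Suv39h2 (adjusted p = 0.0221), beside 5.54% of all genes.

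No difference between the responses of the genotypes was called for any of the 36 genes (0 of 36, and 0 of all 37600 probe sets, 0.0%, by limma). The count therefore says nothing particular of the 36. At an unadjusted p under 0.05 stood 1 of the 36, Suv39h2, and 2.53% of all genes. Its response was 0.11 ± 0.09 in WT and -0.17 ± 0.09 in RARaKO cells, a difference of -0.27 ± 0.12 (unadjusted p = 0.0427, adjusted p = 1.0). The next smallest p-values belonged to Hdac2 (-0.21 ± 0.15), Kdm1a (0.11 ± 0.09) and Hdac1 (0.07 ± 0.08), each with an adjusted p of 1.0. Intervals lay within 0.5 log2 units of 0 for 28 of the 36, and the widest reached from -0.79 to 1.09.

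None of the 5 DNA methylation genes was called between genotypes. Their differences were below 0 for 4 of 5 in vehicle (median -0.18) and for 5 of 5 in atRA (median -0.21), where those of 9461 and 8746 of all 16509 genes were. In atRA the 5 include Dnmt3b at -0.001 and Dnmt1 at -0.02, and both other probe sets of Dnmt1 and 3 of the other 4 of Dnmt3a lay above 0. Dnmt3l, a partner of the de novo methyltransferases without catalytic activity of its own, was at 0.19, 0.22 and 0.23 on the WT vehicle arrays, -0.04, 0.15 and 0.02 with atRA, -0.01, 0.01 and -0.22 on the RARaKO vehicle arrays and -0.15, -0.12 and -0.39 with atRA. The groups thus step down in this order, and no RARaKO array reached a WT array of the same treatment. The differences between genotypes were -0.29 ± 0.09 in vehicle (limma, adjusted p = 0.112) and -0.27 ± 0.09 in atRA (adjusted p = 0.124), and the responses were -0.17 ± 0.09 in WT (adjusted p = 0.752) and -0.15 ± 0.09 in RARaKO cells (adjusted p = 0.719).

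Dnmt3b, a de novo methyltransferase of the early embryo, had the smallest p of the 36 for the response in RARaKO cells. Its values were 0.15, 0.02 and 0.08 on WT vehicle arrays against -0.02, -0.09 and -0.12 with atRA, and 0.07, 0.26 and 0.03 on RARaKO vehicle arrays against -0.03, -0.04 and -0.15 with atRA. In both genotypes every atRA array lay below every vehicle array, as for 8.54% of all genes in WT and 6.4% in RARaKO cells. The response was -0.16 ± 0.07 in WT (limma, adjusted p = 0.696) and -0.20 ± 0.07 in RARaKO cells (adjusted p = 0.483), and the genotypes differed by 0.04 in vehicle and -0.001 in atRA. Its other probe set gave -0.11 and -0.16 for the responses.

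Dnmt1, the maintenance methyltransferase that copies methylation at replication, scarcely varied. Its group means were 0.00 ± 0.01 (SD, n = 3) in WT vehicle, 0.01 ± 0.04 in WT atRA, -0.05 ± 0.05 in RARaKO vehicle and -0.01 ± 0.02 in RARaKO atRA. Only 1.08% of all genes had a smaller pooled SD than its 0.03. Dnmt3a, the other de novo enzyme, had means of 0.09 ± 0.08 and 0.19 ± 0.17 (SD, n = 3) in WT and -0.10 ± 0.09 and -0.06 ± 0.16 in RARaKO cells, vehicle before atRA. Its 5 probe sets did not move together between genotypes, ranging from -0.31 to 0.36 in vehicle. Uhrf1, which brings Dnmt1 to half-methylated DNA, differed between genotypes by -0.18 ± 0.09 in vehicle and -0.21 ± 0.09 in atRA (limma, adjusted p = 0.385 and 0.258), and its other probe set gave -0.12 and -0.18.

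The promoter of Dnmt3l stood apart from the others in its sequence. CpG dinucleotides, the substrate of these enzymes, numbered 6 to 57 in the richest 300-base promoter window of the 32 genes matched, with a median of 29.5, and 31 of 32 (96.9%) held at least 15. Over the 27025 genes with a RefSeq promoter, not limited to those on the array, the median was 8 and 37.1% held at least 15. Dnmt3l was the exception with 6, and the 250 bases before the start of that promoter are shown with CpG in capitals, for comparison with the CpG-rich promoters of the genes called between genotypes.

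Dnmt3l, chr10:78042037-78042286, plus strand: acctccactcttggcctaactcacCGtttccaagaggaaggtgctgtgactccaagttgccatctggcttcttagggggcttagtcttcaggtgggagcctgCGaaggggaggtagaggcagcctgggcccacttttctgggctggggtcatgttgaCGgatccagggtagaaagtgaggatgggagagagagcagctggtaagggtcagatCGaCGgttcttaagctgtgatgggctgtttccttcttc

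Phf19, chr2:34913977-34914226, minus strand: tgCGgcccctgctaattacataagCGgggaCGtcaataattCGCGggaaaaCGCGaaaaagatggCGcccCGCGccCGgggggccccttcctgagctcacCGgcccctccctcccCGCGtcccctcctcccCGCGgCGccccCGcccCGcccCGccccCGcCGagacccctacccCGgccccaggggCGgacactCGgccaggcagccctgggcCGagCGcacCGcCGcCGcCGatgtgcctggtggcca

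Suv39h2, chr2:3474987-3475236, minus strand: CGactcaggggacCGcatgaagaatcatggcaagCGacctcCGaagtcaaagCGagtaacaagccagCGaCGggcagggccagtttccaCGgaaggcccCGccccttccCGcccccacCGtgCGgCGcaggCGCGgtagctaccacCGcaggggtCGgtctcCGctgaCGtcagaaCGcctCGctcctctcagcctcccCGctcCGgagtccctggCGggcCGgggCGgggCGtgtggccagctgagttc

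The stretch of Dnmt3l holds 5 CpG, that of Phf19 31 and that of Suv39h2 27. These are sequences of the reference genome, and methylation of them was not measured.

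The 3 TET genes, whose enzymes oxidise 5-methylcytosine, had larger standard errors (median 0.18) than any other class of more than 1 gene. Tet1 was at 0.40, -0.17 and -0.31 on WT vehicle arrays of sets 2, 3 and 4, at 0.43, -0.66 and -0.60 with atRA, at 0.67, 0.29 and -0.02 on RARaKO vehicle arrays and at 0.74, -0.14 and 0.02 with atRA. Set 2 was highest in all 4 groups, and all groups overlapped. Its standard error of 0.31 was the largest of the 36 genes, so the differences between genotypes, 0.34 in vehicle and 0.49 in atRA (limma, adjusted p = 0.675 and 0.446), have intervals from -0.32 to 1.00 and from -0.18 to 1.15. Within each set the RARaKO array was above the WT array in both treatments. The other 3 probe sets of Tet1 gave -0.15 to 0.10 in vehicle and -0.05 to 0.31 in atRA. Tet2 and Tet3, by the probe sets that stand for them, differed by at most 0.15 in the 4 comparisons of groups.

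No PRC2 core gene was called in any comparison. Ezh2, the methyltransferase subunit of proliferating cells, differed by -0.06 ± 0.06 with atRA in WT, by -0.03 in RARaKO cells, and between genotypes by -0.07 in vehicle and -0.04 in atRA, all with intervals inside 0.25 log2 units of 0. Eed, which binds the mark, stayed between -0.09 and 0.08, while its other probe set gave -0.20 between genotypes in vehicle and 0.22 for the response of RARaKO cells. Ezh1, the paralog of resting cells, stayed between 0.04 and 0.13, while its other 3 probe sets ran from -0.10 to 0.43 between genotypes in atRA. Suz12, the scaffold subunit, had means of -0.04 ± 0.09 and -0.02 ± 0.26 (SD, n = 3) in WT and 0.21 ± 0.24 and 0.09 ± 0.18 in RARaKO cells. Its difference of 0.25 ± 0.14 in vehicle was not called (limma, adjusted p = 0.441), and the groups overlapped. All 6 of its probe sets lay on the same side, from 0.11 to 0.45, and in each of them RARaKO vehicle set 2 was the highest array.

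Of the PRC2 accessory genes, Phf19 was the only one called between genotypes, in atRA, and Mtf2 differed with the opposite sign without a call. Phf19, read by probe set 1427920_at, was at 0.12, 0.27 and 0.35 on the WT vehicle arrays and at -0.33, -0.005 and -0.07 on the RARaKO vehicle arrays. With atRA it was at 0.005, 0.16 and 0.29 in WT and at -0.28, -0.34 and -0.18 in RARaKO arrays. All 6 RARaKO arrays lay below all 6 WT arrays, the nearest being RARaKO vehicle set 3 and WT atRA set 2. The difference was -0.38 ± 0.10 in vehicle (limma, adjusted p = 0.0626) and the called -0.42 ± 0.10 in atRA. The second Phf19 probe set gave 0.07 and 0.04, and the mean of both gave -0.19 in atRA (adjusted p = 0.159, with a range of 0.00696 to 0.26 over the alternatives run). The call was also lost when any of 8 of the 12 arrays was left out, with adjusted p-values from 0.0503 to 0.174 there.

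Mtf2, a paralog of Phf19 that recruits PRC2 to CpG-rich DNA, differed the other way. Its values were -0.15, -0.06 and -0.12 on WT vehicle arrays and 0.27, 0.26 and -0.01 on RARaKO vehicle arrays. With atRA they were 0.01, -0.28 and -0.06 in WT and 0.51, 0.17 and 0.15 in RARaKO arrays. In each treatment the RARaKO arrays were all above the WT arrays. The differences were 0.28 ± 0.11 in vehicle (limma, adjusted p = 0.23) and 0.39 ± 0.11 in atRA (adjusted p = 0.0843), so Mtf2 was not called. All 6 of its probe sets were higher in the RARaKO-labelled arrays in both treatments, from 0.06 to 0.28 in vehicle and from 0.16 to 0.39 in atRA. Jarid2, the cofactor that targets PRC2 in embryonic cells, differed by 0.14 and 0.10, neither called. Its other 2 probe sets lay below 0 in both treatments, down to -0.05.

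**Figure D3:**
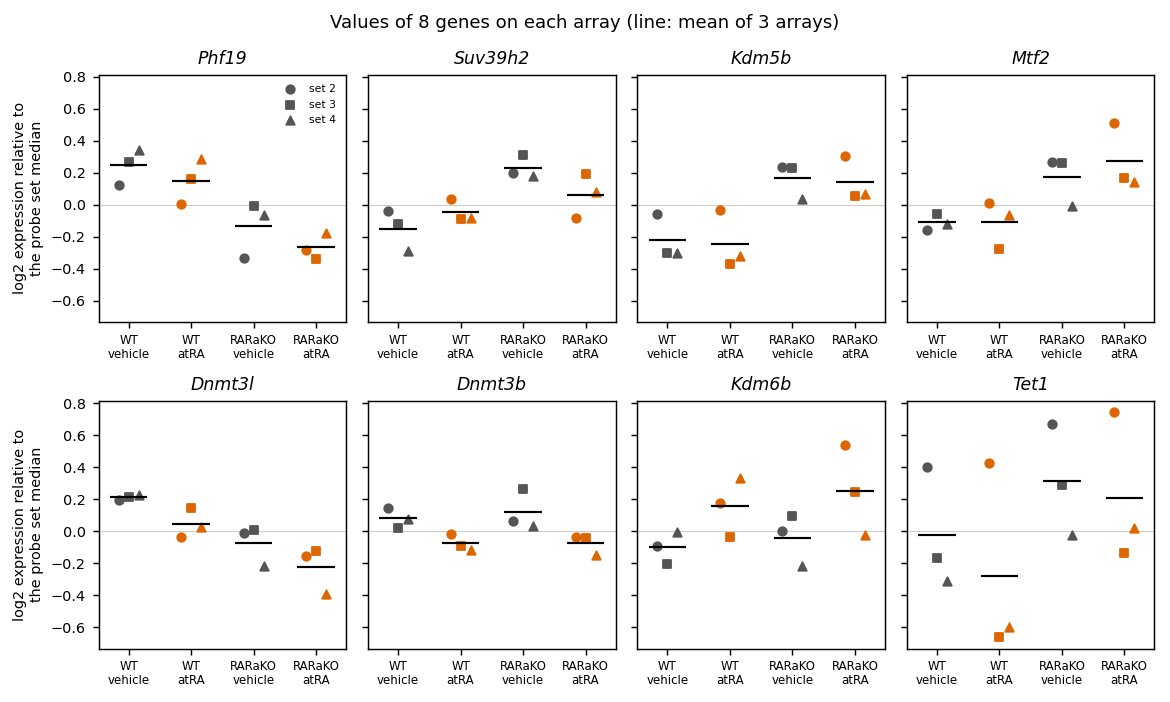
Each point is 1 array, its shape the set and its colour the treatment (orange for atRA), the horizontal line is the mean of 3 arrays, and the vertical axis is log2 expression relative to the probe set's median. Phf19 and Dnmt3l lie lower and Kdm5b and Mtf2 higher in the RARaKO-labelled arrays in both treatments, Suv39h2 is separated in vehicle only, and Tet1 follows the set.

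PRC1 genes gave no call. Their medians were -0.07 and -0.06 for the responses of WT and RARaKO cells, and -0.004 and 0.01 between genotypes in vehicle and atRA. Rnf2, the catalytic ubiquitin ligase of PRC1, had means of 0.05 ± 0.03 and -0.02 ± 0.13 (SD, n = 3) in WT and -0.001 ± 0.02 and -0.06 ± 0.04 in RARaKO cells, and by this probe set differed by no more than 0.07 in any comparison of groups. Its other 4 probe sets ran from -0.21 (response of WT cells) to 0.24 (between genotypes in atRA). Cbx7, the chromodomain subunit typical of embryonic stem cells, differed between genotypes by 0.12 ± 0.07 in vehicle and 0.16 ± 0.07 in atRA (limma, adjusted p = 0.419 and 0.208). Bmi1, a partner of Rnf2, differed by -0.28 and -0.33 with a standard error of 0.19, and its RARaKO arrays of set 4 were the lowest of the 12, at -0.60 in vehicle and -0.74 in atRA. Ring1, Cbx2, Cbx8 and Pcgf6, by the probe sets that stand for them, differed by at most 0.14 throughout.

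Kdm6b, the demethylase that removes the Polycomb mark from lysine 27, had the largest positive response to atRA of the 36 in both genotypes. It was at -0.10, -0.20 and -0.004 on WT vehicle arrays against 0.18, -0.04 and 0.33 with atRA, and at 0.004, 0.09 and -0.22 on RARaKO vehicle arrays against 0.54, 0.25 and -0.02 with atRA. The atRA array was above the vehicle array of its own set in all 6 pairs, while the groups overlapped. In WT all 3 sets rose for 5 of the 36 genes and for 2248 of all 16509. In RARaKO cells they rose for 4 of the 36 and for 2646 of all genes. The responses were 0.26 ± 0.14 in WT (95% interval -0.04 to 0.55, limma, adjusted p = 0.759) and 0.30 ± 0.14 in RARaKO cells (0.00 to 0.59, adjusted p = 0.606), neither called. Its other 2 probe sets gave 0.13 and 0.14 in WT and 0.23 and 0.30 in RARaKO cells.

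Among the lysine 9 methylation genes Suv39h2 stood apart. Read by probe set 1422979_at, it was at -0.04, -0.12 and -0.29 on WT vehicle arrays and at 0.20, 0.31 and 0.18 on RARaKO vehicle arrays, with no overlap. With atRA it was at 0.04, -0.09 and -0.08 in WT and at -0.08, 0.19 and 0.08 in RARaKO arrays, which overlap. The difference of 0.38 in vehicle was 0.11 ± 0.09 in atRA (limma, adjusted p = 0.563). Its other 2 probe sets gave 0.15 and -0.09 in vehicle, and the mean of all 3 was 0.15 (adjusted p = 0.247, with a range of 0.00832 to 0.288 over the alternatives run). The call was lost without any of the 3 RARaKO vehicle arrays and without WT vehicle set 3 or set 4, where the difference was 0.31 to 0.405 and the adjusted p 0.0573 to 0.139.

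The other 4 genes of this class, by the probe sets that stand for them, differed by at most 0.09 in every comparison of groups. A further probe set of Setdb1 gave -0.18 between genotypes in vehicle and 0.20 for the response of RARaKO cells, for which the other one of Ehmt2 gave -0.11. They are Ehmt1 and Ehmt2, the paired enzymes of dimethylation, Setdb1, the trimethylase of retroelements, and Trim28, the corepressor that recruits it. Ehmt2 had means of -0.004 ± 0.03 and -0.05 ± 0.07 (SD, n = 3) in WT and 0.01 ± 0.10 and 0.03 ± 0.04 in RARaKO cells. Setdb1 had means of 0.04 ± 0.07 and -0.04 ± 0.07 in WT and 0.05 ± 0.07 and -0.02 ± 0.01 in RARaKO cells. Trim28 had the lowest pooled SD of all 36 genes, 0.03, and 0.945% of all genes had a smaller one.

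Of the demethylases of lysines 4 and 9, Kdm5b differed most between genotypes. Kdm5b, which removes methyl groups from lysine 4, was at -0.06, -0.30 and -0.30 on WT vehicle arrays and 0.24, 0.23 and 0.04 on RARaKO vehicle arrays. With atRA it was at -0.04, -0.37 and -0.32 in WT and 0.30, 0.06 and 0.07 in RARaKO arrays. Every RARaKO array was above every WT array. The differences were 0.39 ± 0.11 in vehicle and in atRA (limma, adjusted p = 0.0812 and 0.0763), with responses of -0.02 in both genotypes. Its other 3 probe sets gave -0.02 to 0.05 in vehicle and 0.01 to 0.13 in atRA.

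Kdm1a, which demethylates lysine 4 within corepressor complexes, had the smallest p for the response in WT cells. It was at 0.01, -0.04 and 0.04 on WT vehicle arrays against -0.11, -0.25 and -0.14 with atRA. On RARaKO arrays it was at 0.01, 0.10 and 0.06 in vehicle and 0.10, -0.005 and -0.10 with atRA. The WT groups did not overlap, the RARaKO groups did, and in atRA the RARaKO arrays all lay above the WT arrays. The response was -0.17 ± 0.07 in WT (limma, adjusted p = 0.594) and -0.06 ± 0.07 in RARaKO cells (adjusted p = 0.883). By the other probe set of Kdm1a it was -0.06 in both, with a difference between the responses of 0.001. Kdm5a differed between genotypes by -0.17 in vehicle and -0.28 in atRA, but its 6 probe sets spread from -0.17 to 0.77 and from -0.28 to 0.58, and Kdm4c, a lysine 9 demethylase, gave -0.15 and -0.12 for the responses.

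**Figure D4:**
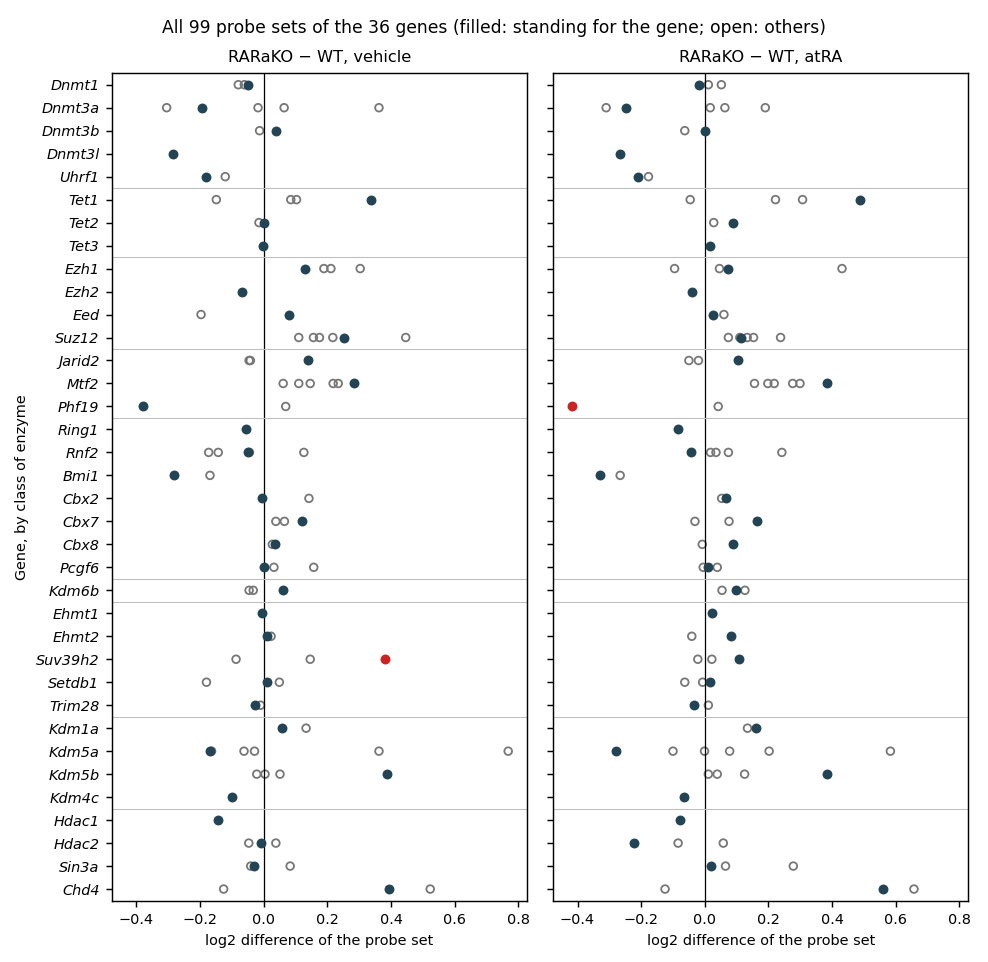
Points are log2 differences between genotypes for all 99 probe sets of the 36 genes in vehicle (left) and atRA (right), filled for the probe set that stands for its gene and open for the others, with called ones in red. Open points of Mtf2 and Suz12 keep the side of the filled one, the open point of Phf19 lies on the other side of 0, those of Suv39h2 and Kdm5b lie nearer 0 than the filled one, and those of Kdm5a spread over both sides.

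The deacetylase and remodelling genes were also without calls. Hdac1 was at 0.09, 0.06 and 0.06 on WT vehicle arrays, 0.07, 0.01 and 0.002 with atRA, -0.07, -0.16 and -0.002 on RARaKO vehicle arrays and -0.03, -0.09 and -0.04 with atRA. The RARaKO arrays all lay below the WT arrays of the same treatment, by -0.14 ± 0.06 in vehicle and -0.08 ± 0.06 in atRA (limma, adjusted p = 0.26 and 0.54). Hdac2, its paralog, was at -0.04, 0.11 and -0.14 on WT vehicle arrays, 0.003, -0.003 and 0.02 with atRA, 0.02, 0.01 and -0.12 on RARaKO vehicle arrays and -0.45, 0.02 and -0.21 with atRA. The low values are those of sets 2 and 4 in RARaKO atRA, and its response was -0.18 ± 0.10 there (adjusted p = 0.704) and 0.03 in WT. Of its 2 other probe sets, 1 shared the sign of the RARaKO response and 1 gave 0.04. The latter gave 0.02 for the difference between the responses. Sin3a, a scaffold of both deacetylases, differed by at most 0.09 throughout by the probe set that stands for it, and 1 of its others gave 0.17 for the response of RARaKO cells and 0.28 between genotypes in atRA.

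Chd4, the remodelling ATPase of the NuRD deacetylase complex, had the largest differences between genotypes of the 36 and the second widest spread. It was at -0.03, -0.41 and -0.34 on WT vehicle arrays and 0.03, 0.31 and 0.06 on RARaKO vehicle arrays. With atRA it was at 0.03, -0.19 and -0.45 in WT and at 0.91, -0.11 and 0.27 in RARaKO arrays. The vehicle groups did not overlap and the atRA groups did. The differences were 0.39 ± 0.21 and 0.56 ± 0.21 (limma, adjusted p = 0.408 and 0.178), and its other 2 probe sets gave 0.52 and -0.13 in vehicle and 0.66 and -0.13 in atRA. The array at 0.91, RARaKO atRA set 2, also had the widest spread over all probe sets, an SD of 0.20 against 0.13 to 0.16 on the other 11.

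Across the 36 genes the pooled SD within groups had a median of 0.11, beside 0.10 over all genes, and ran from 0.03 for Trim28 to 0.46 for Tet1. Part of that spread followed the set: 6 genes were at their extreme in set 2 in all 4 groups, with Dnmt3a, Jarid2, Kdm5b, Rnf2 and Tet1 highest and Uhrf1 lowest. This is 16.7% of the 36, and 8.64% of all genes did the same. For set 4 Pcgf6 was always highest and Tet2 always lowest (5.56%, beside 4.54% of all genes), and for set 3 none was (5.14%). Between genotypes in vehicle the 3 within-set differences had a common sign for 20 of 36 genes (42.2% of all genes), and in atRA for 13 (38.6%). For the responses this held for 16 genes in WT (33.9%) and 13 in RARaKO cells (36.3%).

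A probe set stands for each gene above, and 29 of the 36 genes had more than 1. None of the 63 probe sets that were not chosen was called in any comparison. The calls of Suv39h2 and Phf19 therefore rest on 1 probe set each. The uncalled differences of Mtf2 and Suz12 were shared in sign by 6 of 6 probe sets. Those probe sets share arrays and RNA samples, so their agreement is not replication. Other genes, Ezh1 and Cbx7 in vehicle among them, showed it too. Probe sets of 1 gene read different parts of its transcripts, and whether they detect different isoforms was not tested.

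Further chromatin genes were taken from a list of 141, of which 131 were measured. Each was read only by the probe set that stands for it. Their other probe sets and the alternative settings were not followed. Of the 131 genes, 1 was called for the response of WT cells (beside 0.8% of all genes) and 0 for that of RARaKO cells (beside 0.394%), and 4 stood at an unadjusted p under 0.05 in each. Chd7, a remodelling ATPase, rose by 0.43 ± 0.08 in WT (limma, adjusted p = 0.0254). In RARaKO cells it differed by 0.365 ± 0.08 (adjusted p = 0.111), with all atRA arrays above all vehicle arrays, and the difference between the responses was -0.07 ± 0.11 (adjusted p = 1.0). Chd7 was also higher in RARaKO than in WT arrays, by 0.40 in vehicle (adjusted p = 0.0163) and 0.33 in atRA (adjusted p = 0.0431). Between genotypes 3 of the 131 were called higher and 1 lower in vehicle (beside 3.37% of all genes), and 3 higher and 2 lower in atRA (beside 3.48%), so these shares were near the background.

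Kdm2b, which brings a variant PRC1 to CpG islands, was lower in the RARaKO-labelled arrays, with a difference of -0.35 ± 0.06 in vehicle (limma, adjusted p = 0.00733) and in atRA (adjusted p = 0.00753). Kdm4a, a demethylase of lysines 9 and 36, was higher by 0.62 ± 0.07 and 0.64 ± 0.07 (adjusted p = 2.58e-04 and 2.21e-04). Scmh1, a PRC1-associated protein, was higher by 0.48 and 0.49 (adjusted p = 0.0433 and 0.0391), and Kat5, an acetyltransferase, differed by -0.31 in atRA (adjusted p = 0.0388). Kdm4a and Scmh1 lie on chromosome 4 between Tusc1 and Akirin1 in the RefSeq gene order, while Hdac1, Kdm1a and Kdm4c, on the same chromosome, lie outside that stretch. The stretch, too, was named with earlier results of these data known, so it gives no independent test of position. Whether position has a part in these differences was not tested.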

How the data were processed

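The 36 genes and the further lists were chosen with earlier results of these data known. Per the submitters' processing notes the authors processed the arrays with GCRMA, whose version is not given in the sources used here. The deposited values are taken as log2, the scale GCRMA gives, since no label states the base, and in them the median of every probe set over the 12 arrays is 0. Of 37661 probe sets 61 controls were left out. Symbols came from the platform annotation: of those tested, 30488 carried 1 symbol, 784 several and 6328 none, and only those with 1 were named, so a probe set shared by Kdm6b and another symbol was not used. Where a gene had several, the probe set of the highest recovered level class stood for it, then _at before _a_at, _s_at and _x_at, then the lowest identifier number.

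All 12 arrays entered 1 limma 3.58.1 fit in R 4.3.3 (lmFit and eBayes, a mean per group, no block, 8 residual and 4.595 prior degrees of freedom), two-sided, and the procedure was tested on simulated data. The number of arrays limits the precision. Genes named with all array values are those called, the 4 with the smallest p in each comparison and 14 fixed for reference, some by group means. Chd4, Bmi1, Cbx7, Uhrf1 and Kdm5a were added after their values were seen. Same-set arrays deviated together in vehicle between genotypes (r of 0.116 to 0.238 over 3 pairs) and in both responses (0.101 to 0.392 and 0.117 to 0.497), but not in every pair in atRA (0.0375 to 0.287). In the responses some arrays of different sets did so as much. WT vehicle set 4 and WT atRA set 3 had an r of 0.124, and RARaKO vehicle set 3 and RARaKO atRA set 2 an r of 0.117. The sets are therefore not shown to be pairs for the responses. Alternatives were the set as a block, leaving out arrays or sets, only the groups compared, array weights, other scalings, a level minimum, means or any of a gene's probe sets, and an adjusted p under 0.1. Promoters, in GRCm38.p6, are RefSeq's.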

Additional observations from a re-analysis of the deposited data

How the results depend on the processing

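The counts of 0 genes called in both responses and in their difference stayed 0 under every alternative run. Single-gene results were followed for the 4 genes with the smallest p in each comparison. Of their values 402 kept their direction and side of the threshold, 9 passed it only under an alternative and 23 failed it only under one. All 23 are values of Suv39h2 in vehicle and Phf19 in atRA, the only called results among them. Most of the 402 are therefore uncalled genes that stayed uncalled. None changed direction, in genes picked for their small p. With the replicate block of set numbers, the vehicle comparison of genotypes called 3 genes and the atRA comparison, whose sets do not all pair, 4 (Kdm5b, Mtf2, Phf19 and Tet1, beside 6.25% of all genes). The block changed no other count. Array weights called 2 in vehicle (Kdm5b, Suv39h2) and 2 in atRA (Dnmt3a, Phf19), beside 6.03% and 4.91% of all genes, a level class of at least 8 called 2 of 31 in each (Kdm5b with Suv39h2 or Mtf2, beside 8.17% and 9.56% of genes), an adjusted p under 0.1 gave 3 and 3 (beside 5.6% and 6.64%), and the mean of a gene's probe sets 0 and 0. In atRA, quantile normalization and a fit of only the groups compared each called 0. Leaving out 1 array gave 0 to 1 genes in vehicle and 0 to 2 in atRA, where Chd4 was called in place of Phf19 without RARaKO atRA set 3; leaving out a set gave 0 in both. The median difference between the responses, 0.013, became -0.027 with array weights and lay from -0.023 (without RARaKO atRA set 2) to 0.039 with 1 array left out. The cause was not tested. The Phf19 probe set lies under the level minimum and was not part of that alternative. Level filters in log2 units could not be used beyond the recovered class, because levels are not in centred values.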
